A study of Mus musculus with 4 samples.

Results

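Macrophages of the mouse pituitary gland were described from single-cell RNA counts of 4 libraries. A barcode was kept as a cell when it held at least 500 detected genes and at most 20% mitochondrial counts. A kept barcode was taken as a macrophage when at least 4 of the 9 genes C1qa, C1qb, C1qc, Csf1r, Tyrobp, Ctss, Cx3cr1, Mrc1 and Aif1 were detected and Gh, Prl and Pomc, the transcripts of the major pituitary hormones, made up less than 10% of its counts. This rule found 662 macrophages among 27220 kept barcodes, out of 34737 deposited. The members were thus chosen by the detection of the 9 genes and the share of hormone counts, and the levels of the 9 genes in these cells are given below as a description, without a test.

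The glands came from wild-type C57BL/6J male mice kept for 12 weeks on control food (CTRL) or on a diet rich in fat (HFD), and each diet had 2 libraries (CTRL 1, CTRL 2, HFD 1 and HFD 2). Glands were dissociated with collagenase and trypsin and run on a droplet platform that reads the 3' end of RNA and counts molecules by unique molecular identifiers (UMIs). Age beyond the weeks of diet is not given in the sources used here. Nor do the labels say how many glands entered a library or whether the 2 libraries of a diet came from different animals, so a p-value here reflects the spread among these libraries alone, and that spread may be technical.

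Tissue macrophages clear dying cells and debris, present antigen and secrete cytokines. The microglia of the brain are a specialised form marked by P2ry12, Tmem119 and Sall1, and perivascular and connective tissue macrophages are commonly marked by Mrc1, a mannose receptor. MHC class II molecules present peptides to CD4+ T cells. Their alpha and beta chains are encoded in the mouse by H2-Aa, H2-Ab1 and H2-Eb1, their chaperone, the invariant chain, by Cd74, and their transcription depends on the coactivator Ciita. The pituitary holds both an anterior part of hormone cells and a posterior part of neural origin, and the dissociated glands were not sorted for immune cells.

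The deposited libraries held between 74758237 and 101903367 UMIs. Across CTRL 1, CTRL 2, HFD 1 and HFD 2, the median macrophage held 8046, 6481, 6148 and 7090 UMIs, below the other kept barcodes of the same library. A few deep barcodes weighed heavily on the sums: members above 20000 UMIs numbered 14, 13, 18 and 5 in CTRL 1, CTRL 2, HFD 1 and HFD 2 and carried 35%, 33.5%, 32.9% and 10.1% of the macrophage UMIs. HFD 2 therefore stood apart from the other 3 libraries in the composition of its sum. Barcodes were also shared between libraries: HFD 1 and HFD 2 had 3116 deposited barcodes in common and CTRL 2 and HFD 1 had 1423, while each other pair of libraries had between 14 and 22. Among the macrophages, 91 carried a barcode that occurred in another library (1, 18, 30 and 42 in CTRL 1, CTRL 2, HFD 1 and HFD 2). In CTRL 2 these had a median of 23215 UMIs against 6393 in the other macrophages, and in HFD 1 21779.5 against 6122. For 12 barcodes the macrophage was a member in both libraries, and in the 8 of these between HFD 1 and HFD 2 the shallow copy held 5.28% to 5.91% of the UMIs of the deep one. The share of macrophages, the subset shares and the gene comparisons were recomputed without these barcodes.

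The macrophage label was checked on genes outside the rule. At least 3 of 20 further macrophage genes were detected in 651 of the 662 members. In counts per 1000000 UMIs of each library's macrophage sum (CPM), Fcer1g, the signalling chain of Fc receptors, measured 1957.3, 2177.5, 1999.2 and 2691.8 in CTRL 1, CTRL 2, HFD 1 and HFD 2, against a mean of 8.65 in all other kept barcodes. Spi1, the transcription factor that directs myeloid development, measured 295.0, 310.3, 248.3 and 374.3 against 0.864. Adgre1, which encodes the F4/80 antigen, measured 107.2, 108.6, 83.5 and 124.5 against 0.187. All 4 libraries lay close together on these genes, with HFD 2 the highest each time.

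The 9 genes of the rule were unevenly detected. Ctss, a lysosomal protease, was detected in 98.6% of members or more in each library and Tyrobp, an adaptor of activating receptors, in 98.2% to 99.3%. The complement genes C1qa, C1qb and C1qc, which encode the chains of the C1q recognition molecule, were each found in 90.8% to 97.1% of members per library. Csf1r, the receptor for the growth factor that macrophages need, was found in 77.9% to 84.6%, Cx3cr1, the fractalkine receptor, in 73.3% to 80.0%, and Mrc1 in 30.4% to 42.1%. All 9 genes were detected in 174 members, 8 in 294, 7 in 87, 6 in 45, 5 in 24 and the minimum of 4 in 38. At the limit of the rule, the 38 members with 4 markers held C1qa at 57.5 CPM and Tyrobp at 730.5 CPM. The 38 kept barcodes with 3 markers, just outside it, held C1qa at 92.1 CPM and Tyrobp at 496.3 CPM. The cells at the edge of the class were thus low in C1qa on both sides, against a mean of 4435.7 ± 949.2 (SD, n = 4) CPM in the whole class.

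Marks of other cells were present in the sums and differed by library. The summed CPM of 8 endothelial genes was 1320.8, 206.3, 980.1 and 293.1 in CTRL 1, CTRL 2, HFD 1 and HFD 2, and that of 8 stem cell genes was 1380.2, 1582.7, 1245.9 and 407.8. At least 2 endothelial genes were detected in 50 members, at least 2 mesenchymal genes in 28 and at least 2 stem cell genes in 69. The 6 red cell genes summed to 4176.8 CPM in HFD 1 and to between 64.1 and 273.4 in the other libraries. Of the neutrophil genes, 1 member of HFD 1 alone held 1838 UMIs of S100a8 and S100a9. T cell genes were near 0, with Cd3e, Cd3g and Cd8a at 0 in every library. Of 8 B cell genes, at least 2 were detected in 67 members and at least 3 in none. The summed CPM of these 8 genes was 97.7, 84.4, 120.8 and 133.6 in CTRL 1, CTRL 2, HFD 1 and HFD 2. In the rest it was 19.2, 25.0, 30.2 and 27.5. Hormone UMIs (Gh, Prl and Pomc) made up 0.854% to 1.24% of the macrophage UMIs per library, against 19.7% to 25.9% in the rest. The rule itself limited this share in each member, so the gap is no test for hormone cell RNA. Cga is a hormone transcript outside the rule. In macrophages of CTRL 1, CTRL 2, HFD 1 and HFD 2 it measured 980.0, 10060.4, 5461.6 and 2489.1 CPM. In the rest it measured 14090.9, 10777.4, 16815.9 and 23905.1 CPM. The highest member of each library held 67.7%, 37.9%, 53.7% and 86.8% of the macrophage UMIs of Cga. The gene comparisons were recomputed in the 514 members with few signs of a second cell (97, 111, 153 and 153 in CTRL 1, CTRL 2, HFD 1 and HFD 2), meaning at most 20000 UMIs, Cga, the subunit shared by several hormones, under 1%, fewer than 4 stem cell genes and fewer than 2 genes of each other cell type.

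MHC class II transcripts ranged from none to a large part of a macrophage's RNA. Each member was scored by its UMIs of H2-Aa, H2-Ab1, H2-Eb1 and Cd74 per 10000 UMIs, and members at 20 or more were called MHC class II high. There were 500 high members (101, 95, 180 and 124 in CTRL 1, CTRL 2, HFD 1 and HFD 2) and 162 low members (29, 45, 37 and 51). A total of 55 members held none of these UMIs and 423 held more than 100 per 10000, while 48 lay between 10 and 40, near the limit. Median levels per library were 252.1, 138.6, 422.7 and 397.7 per 10000, and the highest member of each library reached between 1112.3 and 1669.1. Depth did not separate the groups: high members had median UMIs of 8024, 6427, 6219 and 7009 in CTRL 1, CTRL 2, HFD 1 and HFD 2, and low members 8089, 6813, 5663 and 7534. All 12 pairs of members with one barcode in 2 libraries fell on the same side of the limit. Both copies of each pair are counted above. The origin of the shared barcodes was not settled and the copies may not be separate cells, so this agreement is no test of the limit.

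**Figure D1:**
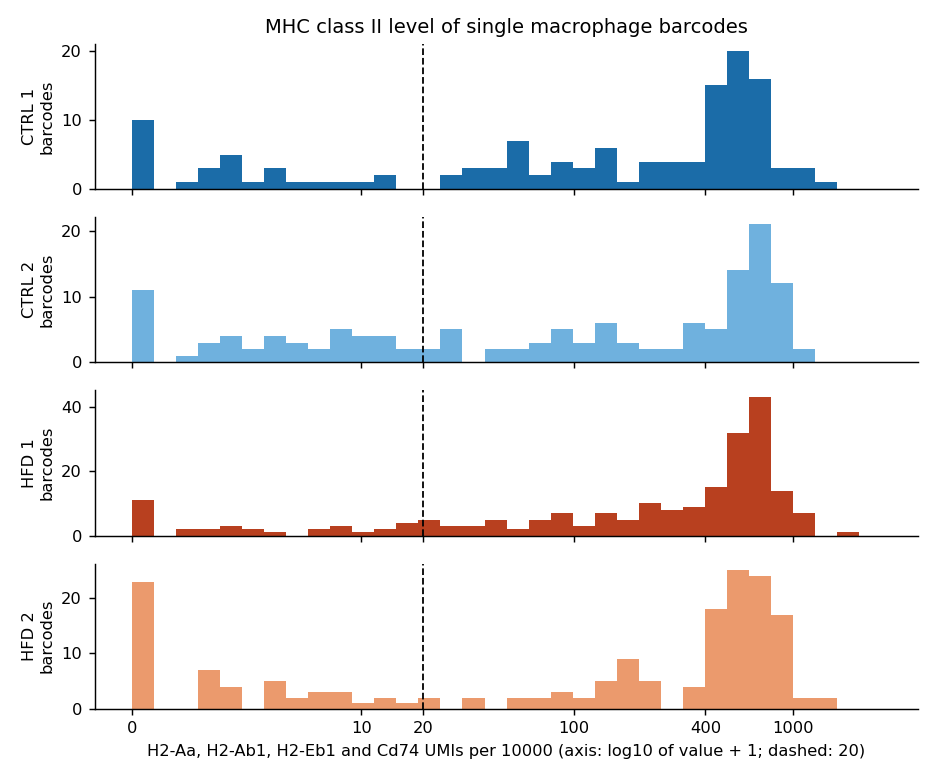
Number of macrophage barcodes (vertical axis, 1 panel per library) by their UMIs of H2-Aa, H2-Ab1, H2-Eb1 and Cd74 per 10000 UMIs (horizontal axis, logarithmic after adding 1). The dashed line marks the limit of 20, and every library shows a group at 0 to the left and a larger group well above 100 to the right.

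The start regions of H2-Eb1 and H2-Aa are shown because these genes define the high members, and that of H2-DMb1 because it was not used to define them and differed between the subsets (below). The promoter of an MHC class II gene typically carries an X box, bound by RFX factors and partners, and a Y box, an inverted CCAAT element bound by NF-Y, and Ciita docks on the assembled factors. The sequences are RefSeq promoters of build GRCm38.p6, 5' to 3' on the strand of the gene. Capitals mark matches to 2 sets of letters chosen after these promoters had been viewed and searched on both strands. The first, CTAGNAACTGATGATGCT (named X here), is the longest stretch that the promoters of H2-Eb1 and H2-DMb1 share with at most 1 difference, and the second is TGATTGG (named Y).
H2-Eb1: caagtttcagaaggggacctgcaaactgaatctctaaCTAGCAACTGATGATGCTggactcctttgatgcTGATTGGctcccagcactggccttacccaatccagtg
H2-DMb1: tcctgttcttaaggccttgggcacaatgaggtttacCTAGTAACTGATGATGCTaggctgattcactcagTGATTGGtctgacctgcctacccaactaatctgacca
H2-Aa: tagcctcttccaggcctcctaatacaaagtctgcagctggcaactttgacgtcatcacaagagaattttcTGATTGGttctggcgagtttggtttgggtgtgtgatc
H2-Eb1 is shown over chr17:34305736-34305842 (plus strand), H2-DMb1 over chr17:34153058-34153164 (plus strand) and H2-Aa over chr17:34287837-34287943 (minus strand). All lie just upstream of the transcription start of the promoter entry, and Y began 61, 63 and 50 bases before it in H2-Eb1, H2-DMb1 and H2-Aa. The gene record of H2-DMb1 begins earlier, at base 34153072, within the stretch shown and upstream of both matches. Its distances therefore hold for the promoter entry only. In H2-Eb1 and H2-DMb1, X began 94 and 97 bases before the start, with 15 and 16 bases between the matches. Only these 2 of 32851 promoters held the X letters (0.00609%), which were taken from them, whereas the Y letters occurred in 2568 (7.82%). Of the 11 MHC class II genes listed, 8 had a promoter entry, and Y was matched in 7 of these, with no match in H2-DMa. The promoters of C1qb, C1qc, P2ry12 and Crybb1 held neither set of letters. A match is a description of the sequence, not of binding.

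Genes outside the 4 that define the subsets differed widely between high and low members. The test was edgeR's quasi-likelihood F-test on UMIs summed per library and subset, with the library as a block and Benjamini-Hochberg adjustment over all 6898 genes tested. A total of 496 genes (7.19%) passed at an adjusted p under 0.05, of which 338 (4.9%) were higher and 158 (2.29%) lower in MHC class II high members. In members with few signs of a second cell 436 genes passed. Of the 420 genes passing in all members that were also tested there, 282 passed again and 417 had the same direction. Without barcodes shared between libraries 353 passed.

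The genes of the class II pathway that had not been used to split the cells were higher in the high members. All 4 listed genes tested beyond the defining ones passed, with a median log2 difference of 2.55 against -0.05 over all genes. H2-DMb1, a chain of the peptide exchange factor H2-DM, measured 340.9, 377.3, 397.1 and 530.0 CPM in the high members of CTRL 1, CTRL 2, HFD 1 and HFD 2 and 40.5, 32.4, 51.9 and 60.2 CPM in the low members. All high sums lay above all low sums (log2 3.36, SE 0.15, edgeR adjusted p = 1.85e-06). Counts of H2-DMb1 and its near copy H2-DMb2 may not be fully separable. Ciita measured 38.4, 41.6, 62.4 and 58.8 CPM against 2.7, 2.16, 5.77 and 0.0, again without overlap (log2 difference 4.4, SE 0.45, edgeR adjusted p = 0.000381). H2-DMa, the partner chain of H2-DM, was higher by 1.60 on the log2 scale (edgeR adjusted p = 0.000213). H2-Oa, a chain of the inhibitor of H2-DM, was higher by 1.74 (edgeR adjusted p = 0.0285), but its call was lost in members with few signs of a second cell (0.0751), without shared barcodes (0.0948), and without HFD 1 (0.114) or HFD 2 (0.143).

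Genes that mark microglia were higher in the low members. Of 15 listed microglia genes tested beside Cx3cr1 and Csf1r, which the rule used, 14 were lower in high members and 1, Tgfbr1, was higher, with a median log2 difference of -1.20. P2ry12, an ADP receptor that guides microglial processes, measured 205.3, 138.2, 173.0 and 289.1 CPM in the low members of CTRL 1, CTRL 2, HFD 1 and HFD 2 and 19.2, 12.2, 13.3 and 26.6 CPM in the high members. Every low sum was above every high sum (log2 difference high minus low -3.30, SE 0.17, edgeR adjusted p = 4.92e-06). Crybb1, a crystallin gene known as a marker of young microglia, showed the widest contrast of the list, with 110.7, 105.8, 248.0 and 339.7 CPM in low members against 6.4, 7.35, 0.702 and 0.0 in high members (log2 difference -5.54, SE 0.58, edgeR adjusted p = 0.000461). Gpr34, a lysophosphatidylserine receptor, measured 159.4, 181.4, 349.0 and 424.0 CPM in low members and 46.6, 40.4, 45.6 and 57.7 in high members. The groups did not overlap, and the difference of -2.27 (SE 0.21) had an edgeR adjusted p of 0.000224.

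Other microglia genes ran the same way with smaller differences. Siglech, a sialic acid lectin, was lower in high members by -2.63 on the log2 scale, P2ry13, a second ADP receptor, by -1.82, Sparc by -1.84, Olfml3 by -1.20, Trem2, a lipid-sensing receptor, by -1.08, Tmem119 by -1.01, Bhlhe41 by -0.91, Fcrls by -0.80 and Cst3, the protease inhibitor cystatin C, by -0.68, each at an edgeR adjusted p between 0.000112 and 0.0268. Cx3cr1, a gene of the rule given here without a test, measured 395.8, 345.4, 337.4 and 441.3 CPM in high and 596.9, 680.3, 928.7 and 1154.1 CPM in low members. Sall1, the transcription factor that maintains microglial identity, was lower by -2.32 (SE 0.58, edgeR adjusted p = 0.0399), but the call was lost when any 1 library was left out (adjusted p 0.0655 to 0.104). Calls of Fcrls, Trem2, Cst3 and Bhlhe41 were also lost without HFD 2 (adjusted p 0.0766 to 0.126), those of Fcrls, Trem2 and Cst3 also without HFD 1 (0.0503 to 0.0807), and that of Bhlhe41 also without CTRL 1 (0.081) or CTRL 2 (0.075). In members with few signs of a second cell 14 of these 15 genes were lower and 1 was higher, and without shared barcodes 14 were lower and Tgfbr1 no longer passed (edgeR adjusted p = 0.0968).

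When every member was thinned to 1500 UMIs, which left out the 46 shallower members, P2ry12 was detected in 34.8%, 25.6%, 22.2% and 30.4% of low members in CTRL 1, CTRL 2, HFD 1 and HFD 2. It was detected in 0.99%, 1.09%, 5.45% and 6.72% of high members. Every low share lay above every high share. Cx3cr1 was less selective, with 52.2%, 53.5%, 88.9% and 69.6% of low and 44.6%, 46.7%, 44.2% and 46.2% of high members positive.

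High members carried more of the macrophage genes Ms4a7 and Apoe and of several inflammatory transcripts. Ms4a7, a membrane protein gene used to tell border and tissue macrophages from microglia, measured 1492.6, 1471.1, 1465.5 and 1483.5 CPM in high and 108.0, 127.4, 181.7 and 65.1 CPM in low members. The high sums were nearly equal across libraries and far above the low sums (log2 difference 3.87, SE 0.22, edgeR adjusted p = 1.25e-05). Apoe, the lipid carrier, measured 29796.1, 29540.6, 29886.5 and 34358.3 CPM against 7460.2, 14250.7, 11637.3 and 20293.9 (1.49, SE 0.16, edgeR adjusted p = 0.000506). Itgax, the integrin CD11c, measured 64.0, 79.6, 76.5 and 67.6 CPM against 13.5, 17.3, 8.65 and 7.23, while Itgam, the integrin CD11b, went the other way (log2 differences 2.79 and -2.29, edgeR adjusted p 0.000295 and 0.000232). Of 20 pan-macrophage genes 8 were higher and 2 lower. C1qa of the rule, given without a test, measured 3972.4, 4452.5, 3894.2 and 5487.3 CPM in high and 2757.7, 4025.4, 4300.2 and 6498.0 CPM in low members, with overlap.

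Of 22 cytokine and chemokine genes, 6 were higher in high members and 1 was lower. Il1b, the secreted interleukin 1 beta, measured 4107.7, 3881.7, 2778.1 and 4040.3 CPM in high and 445.7, 1254.7, 256.7 and 508.4 CPM in low members (log2 difference 3.0, SE 0.27, edgeR adjusted p = 0.000197). Il1a, its sister cytokine, was the lower one (-1.67, edgeR adjusted p = 0.00333). Cxcl16, a membrane-bound chemokine, measured 560.3, 567.1, 518.4 and 617.6 CPM against 137.8, 267.8, 150.0 and 175.9, and Cxcl2, a neutrophil attractant, 1576.7, 2039.4, 1147.7 and 2962.6 against 251.2, 758.0, 178.8 and 1356.5. In every library both were higher in the high members, and for Cxcl2 the sums overlapped between libraries (log2 differences 1.86 and 2.13, edgeR adjusted p 0.000216 and 0.000797). Of 20 NF-kB feedback genes 8 were higher and none lower, among them Rel (1.55) and Ptgs2 (2.11), the inducible cyclooxygenase. Of 27 immediate-early genes 1 was higher and none lower, and of 13 heat shock genes 5 were higher, including Hspa8 (0.61) and Hspa1a (0.51). Without HFD 1, Ptgs2 no longer passed (edgeR adjusted p = 0.0532), and Hspa1a did not pass without CTRL 2, HFD 1 or HFD 2 (0.0667 to 0.115).

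Lysosomal and lipid genes were divided. Of 23 lysosome genes outside the rule 5 were higher and 5 lower in high members. Ctsc, the protease cathepsin C, was higher (1.37, edgeR adjusted p = 0.000116), while Ctsd (-1.29) and Ctsl (-1.22, edgeR adjusted p = 0.0708 without HFD 1), cathepsins D and L, were lower. Of 20 lipid handling genes 7 were higher, among them Cd36 (2.31), a fatty acid and lipoprotein scavenger receptor, Lgals3 (1.45), galectin 3, and Plin2 (0.96), a lipid droplet coat protein. Trem2 and the tetraspanin Cd9 (-1.56) were the 2 lower ones. Of 9 perivascular genes tested beside Mrc1, Pf4 (1.15) and Apoe were higher, and Selenop (-0.71), a selenium transport protein, and Gas6 (-1.26), a bridge between dying cells and their receptors, were lower. The Pf4 call was lost in members with few signs of a second cell (edgeR adjusted p = 0.0589), without shared barcodes (0.142) and without HFD 2 (0.0837), and that of Selenop without HFD 2 (0.0501).

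Wide differences were also found in secreted proteases, a lectin and matrix genes. Mmp12, macrophage elastase, measured 151.7, 265.8, 296.7 and 469.0 CPM in high and 8.1, 4.32, 0.0 and 0.0 CPM in low members (log2 difference 6.65, SE 0.46, edgeR adjusted p = 4.72e-05). H2-M2, a non-classical class I gene, measured 79.5, 160.5, 114.3 and 153.0 CPM and Mmp13, a collagenase, 138.0, 105.3, 61.7 and 92.0 CPM in high members, and both had no UMI in any low sum. Mgl2, a galactose lectin, measured 25.6, 22.0, 61.0 and 76.5 CPM in high and 0.0, 2.16, 0.0 and 0.0 CPM in low members. Of the Mgl2 UMIs, 116 lay in the 10 members with Cd209a (below) and 87 in all other members. Dcn and Col14a1, matrix genes known from fibroblasts, were also higher, Dcn with 255.9, 193.5, 172.6 and 329.3 CPM against 18.9, 15.1, 0.0 and 2.41 (log2 difference 4.85, SE 0.41, edgeR adjusted p = 0.000154). Mesenchymal genes moved with the subset: 2 of the 3 tested, Dcn and Col1a2, were higher. Of 7 stem cell genes 3, including Cyp2f2 (-1.31), were lower, and of 9 hormone cell genes Cga (2.08) and Chga (1.78) were higher. The Cga difference was 0.02 (edgeR adjusted p = 0.971) in members with few signs of a second cell. Dcn had too few counts to be tested in members with few signs of a second cell and without shared barcodes, whereas Col14a1 (4.24 and 4.53) and Mmp12 (6.01 in both) passed in each of these recounts. The part of these other cell types in the calls for all members was otherwise not tested.

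**Figure D2:**
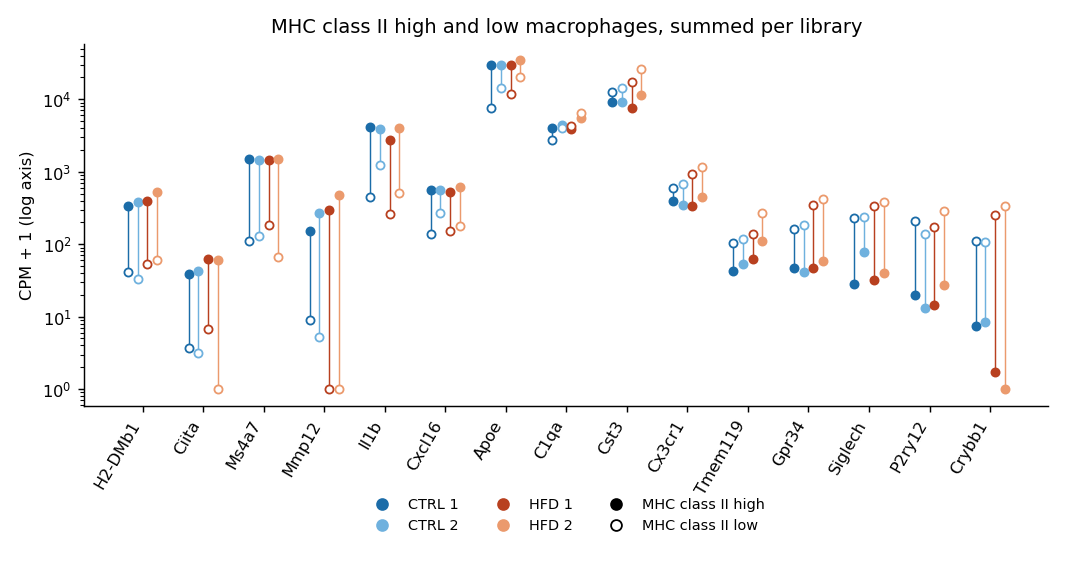
CPM plus 1 (vertical axis, logarithmic) of 15 genes in the summed MHC class II high (filled) and low (open) macrophages, with a line joining the 2 sums of each library. The order of filled and open circles is the same in all 4 libraries from H2-DMb1 to Apoe (filled above) and from Cst3 to Crybb1 (open above), while C1qa lies close together.

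Mrc1 and Cx3cr1 did not define separate populations by detection. At full depth 232 members (35%) had a UMI of Mrc1 and 505 (76.3%) had one of Cx3cr1, 199 had both, 306 had only Cx3cr1, 33 only Mrc1 and 124 neither. Among the other kept barcodes, Mrc1 was found in 0.372% to 0.707% and Cx3cr1 in 0.389% to 0.799% per library, at higher median depth. After thinning to 1500 UMIs, 84 of 616 members (13.6%) were Mrc1-positive, 307 (49.8%) were Cx3cr1-positive, 47 had both and 272 had neither. A lack of a UMI therefore does not show a lack of expression at this depth. By MHC class II, Mrc1 was found in 7.92%, 14.1%, 13.9% and 17.6% of thinned high members and in 17.4%, 9.3%, 11.1% and 17.4% of low members of CTRL 1, CTRL 2, HFD 1 and HFD 2. The groups overlapped, as did the Mrc1 levels, with 48.4, 89.4, 72.3 and 207.3 CPM in high and 54.0, 62.6, 49.0 and 139.7 CPM in low members. These are values of a gene of the rule and were not tested.

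Members with Mrc1 alone, only 3, 10, 12 and 8 in CTRL 1, CTRL 2, HFD 1 and HFD 2, were compared with those with Cx3cr1 alone, and 5 of 3995 genes (0.125%) passed, 1 higher (0.025%) and 4 lower (0.1%). Median UMIs were 7907, 6059, 5119 and 7251 in the Mrc1-only and 8024, 7330.5, 6329 and 7157.5 in the Cx3cr1-only members of these libraries. Rian, a long non-coding RNA of an imprinted cluster, was higher in the Mrc1-only sums, with 244.4, 246.6, 149.7 and 196.8 CPM against 26.2, 45.4, 44.8 and 40.7. The groups did not overlap (log2 difference 2.40, SE 0.34, edgeR adjusted p = 0.0256). Siglech (-4.32), Gpr34 (-4.19), Dcn (-4.31) and Scg2 (-3.31), a secretogranin of hormone cells, were lower, at edgeR adjusted p between 0.0208 and 0.048. No gene passed when CTRL 2 or HFD 2 was left out, although Rian was then still higher by 2.33 (edgeR adjusted p = 0.672) and 2.37 (0.332). Without HFD 1 the calls of Siglech, Gpr34 and Scg2 were lost (edgeR adjusted p 0.0538 to 0.0684), and without CTRL 1 that of Dcn (0.0686). Without shared barcodes Siglech (-3.89) and Gpr34 (-3.81) passed, Scg2 did not (-1.18, edgeR adjusted p = 0.846), and Rian and Dcn had too few counts to be tested. After thinning to 1500 UMIs, 5 other genes were called, Lyz2, Cst3, Cd9, Ctsl and Ctss. Ctss is a gene of the rule, so its call is not read as a test result. None of the 5 genes called at full depth had enough counts to be tested after thinning.

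All Mrc1-positive members were therefore also compared with all Mrc1-negative ones, a comparison added after the data had been seen. By edgeR 0 of 7307 genes passed (0.0%), with 384 at an unadjusted p under 0.05, and DESeq2 called 10. Fcrls, an Fc receptor-like gene of microglia and some macrophages, came nearest, with 342.8, 338.5, 295.8 and 534.0 CPM in Mrc1-positive and 163.4, 146.3, 103.4 and 331.1 in Mrc1-negative sums (log2 difference 1.14, SE 0.15, edgeR adjusted p = 0.0692). Pf4, platelet factor 4, measured 86.2, 184.5, 101.6 and 551.7 against 46.2, 47.1, 23.6 and 35.8 CPM, without overlap (2.29, SE 0.41, edgeR adjusted p = 0.23). Median UMIs were 9336, 6421, 7221 and 7233 in positive and 7752, 6970, 6037 and 7055 in negative members. Without CTRL 1, 5 genes passed, among them Pf4 (edgeR adjusted p = 0.0471) and Ccl7 (0.0496). Without shared barcodes 11 passed, among them Fcrls (1.18, edgeR adjusted p = 0.00155), Apoe (0.66), Maf (0.99), Ccl7 (3.03), Cxcl2 (1.15) and Pf4 (2.28, edgeR adjusted p = 0.017).

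With each member thinned to 1500 UMIs, 32 of 1432 genes passed, 19 higher and 13 lower in Mrc1-positive members. They included Pf4 (2.86, edgeR adjusted p = 2.66e-07), the monocyte attractant Ccl7 (2.63), the scavenger receptor Stab1 (1.89), Fcrls (1.46), the transcription factor Maf (1.24), Selenop (0.85), Lyz2, lysozyme (0.75), and Apoe (0.74), all higher. Of the perivascular list, all 5 genes tested beside Mrc1 were higher (Pf4, Stab1, Selenop, Maf and Apoe). The hormone transcripts Prl, Pomc and Cga were among the lower genes. In members with few signs of a second cell at full depth, 17 genes passed, including Fcrls, Pf4, Apoe, Maf, Cxcl2 and Gas6. No pattern set Mrc1-positive members apart in MHC class II: the differences were 0.14 for H2-Aa and 0.08 for Cd74 at full depth.

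Several defining genes of perivascular macrophages were nearly absent. Lyve1, a hyaluronan receptor, had a UMI in 0 of 662 members, which allows a share of members with a UMI of up to 0.453%, from counting error alone. Its mean in all other kept barcodes was 0.485 CPM. Cd163, the hemoglobin scavenger receptor, had 0, 5, 3 and 21 UMIs in CTRL 1, CTRL 2, HFD 1 and HFD 2, Folr2, a folate receptor, 3, 15, 10 and 19, and Timd4, a phosphatidylserine receptor, 1, 0, 0 and 1.

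Cd209a, a C-type lectin of dendritic cells and some macrophages, was found in 10 members (1, 1, 4 and 4 in CTRL 1, CTRL 2, HFD 1 and HFD 2), all MHC class II high. They held 11, 1, 56 and 58 of its 126 UMIs. Their counts, summed over the 4 libraries, are given without a test, since 2 of the libraries had 1 such cell each. The lectin genes Mgl2 (1365.5 CPM against 15.1) and Clec10a (247.2 against 3.13) and the chemokine receptors Ccr7 (141.3 against 2.26) and Ccr2 (153.0 against 23.0) were higher, as was Cd74 (28615.8 against 12895.8). C1qa (35.3 against 4445.3) and C1qb (188.3 against 3923.3) were far lower, Tyrobp was similar (1718.6 against 1816.3), and Tmem119, P2ry12 and Fcrls had no UMI. Other genes known from dendritic cells were divided. Irf8 measured 11.8 CPM against 194.0, Sirpa 11.8 against 107.2 and Siglech 11.8 against 111.2, each on 1 UMI. Batf3 measured 23.5 against 34.4, on 2 UMIs. Fscn1, Xcr1, Clec9a and Irf4 had no UMI in the 10 members. Flt3 (23.5 against 1.57, on 2 UMIs), Zbtb46 (11.8 against 6.09, on 1 UMI) and Itgax (70.6 against 55.3, on 6 UMIs) were higher. Among other kept barcodes, Cd209a was found in 0.0278% to 0.0684%.

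The share of macrophages did not differ between the diets beyond the spread of the libraries. It was 2.88% of kept barcodes in CTRL 1 (exact Clopper-Pearson 95% interval 2.41 to 3.41), 1.91% in CTRL 2 (1.61 to 2.25), 2.71% in HFD 1 (2.36 to 3.09) and 2.38% in HFD 2 (2.04 to 2.75). The intervals cover counting error only. The HFD libraries lay between the CTRL libraries, with 2.39% ± 0.687 (SD, n = 2) for CTRL and 2.54% ± 0.234 (SD, n = 2) for HFD and a two-sided exact permutation p of 1.0. With 2 libraries a diet the smallest p this test can give is 0.33. Without barcodes shared between libraries the shares were 2.88%, 1.97%, 3.26% and 3.12%. Both HFD libraries were then above the CTRL libraries, by 0.763 percentage points (exact p = 0.33). This recount removed unlike parts of the libraries: 33 of 4513, 1127 of 7334, 2267 of 8012 and 3094 of 7361 kept barcodes in CTRL 1, CTRL 2, HFD 1 and HFD 2. Of the macrophages it removed 1 of 130, 18 of 140, 30 of 217 and 42 of 175. The rise in the HFD shares thus came with a smaller number of other barcodes.

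The subset shares were compared by the same exact test, whose smallest p is 0.33, so no difference could pass. MHC class II high members made up 81.5%, 68.1%, 85.9% and 72.1% of thinned members in CTRL 1, CTRL 2, HFD 1 and HFD 2, so the diets overlapped (difference 4.23 percentage points, exact p = 0.667). Mrc1-positive members made up 9.68%, 12.6%, 13.5% and 17.6%, and Cx3cr1-positive ones 46.0%, 48.9%, 50.5% and 52.7%. In both the HFD libraries were above the CTRL libraries (differences 4.42 and 4.20, each exact p = 0.33, 0.667 after adjustment over 6 shares), but without thinning the Mrc1 difference was -4.12 and the Cx3cr1 difference 0.29, with overlap. Without shared barcodes the thinned Mrc1-positive shares were 9.76%, 14.4%, 14.5% and 19.5% and the Cx3cr1-positive shares 46.3%, 54.2%, 53.5% and 55.3%, so that for Cx3cr1 the diets overlapped. Cd209a-positive members made up 0.769%, 0.714%, 1.84% and 2.29% at full depth, higher in both HFD libraries and resting on 2 CTRL and 8 HFD cells (exact p = 0.33).

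**Figure D3:**
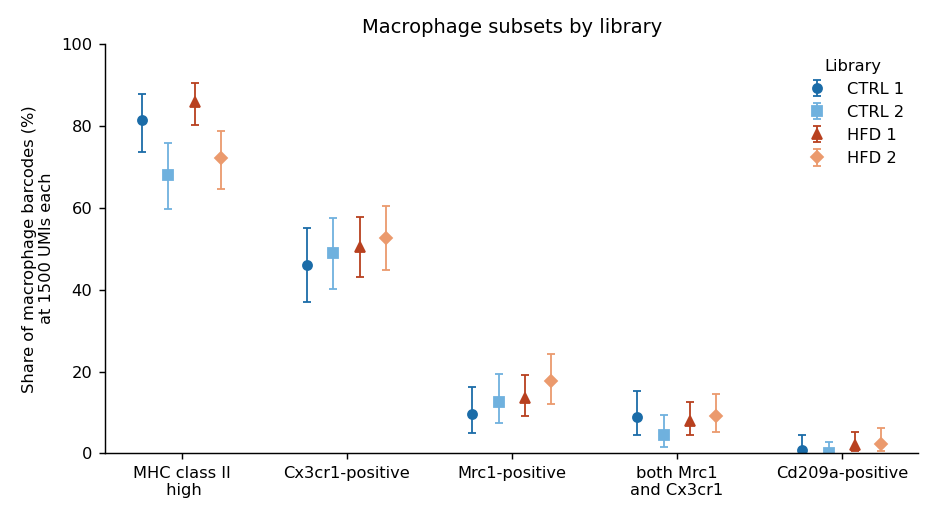
Share of macrophage barcodes (vertical axis, percent) in 5 subsets for each library after thinning to 1500 UMIs. Points are the shares and bars are exact 95% intervals for counting error. The HFD points lie above both CTRL points for Mrc1-positive, Cx3cr1-positive and Cd209a-positive members, the last on 9 cells. For MHC class II high members and those with both Mrc1 and Cx3cr1 the diets overlap. Without thinning, the Mrc1-positive and Cx3cr1-positive shares of the diets overlapped as well.

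Across all genes, no gene passed the comparison of HFD with CTRL in summed macrophages. By edgeR 0 of 9799 genes tested (0.0%) had an adjusted p under 0.05, 432 (4.41%) had an unadjusted p under 0.05, and DESeq2 called 10. The libraries of the diets did not overlap for 3339 genes (34.1%). Leaving out CTRL 1, CTRL 2 or HFD 2 gave 17, 4 and 11 calls, and leaving out HFD 1 gave 0. In these fits 1 diet is left with a single library, which is assumed to vary like those of the other diet. The counts below describe direction only. Genes named below for their small p had to show no overlap of the diets' libraries, so their separation is no result.

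All 10 MHC class II genes tested lay above 0, higher in HFD, with a median log2 difference of 0.55 against 0.0004 over all genes. Several other lists of macrophage genes also lay mostly above 0 (below), so the direction was not particular to MHC class II. Cd74 measured 11185.8 and 11132.0 CPM in the CTRL libraries and 14449.4 and 15434.1 in the HFD libraries. H2-Aa measured 3648.9 and 3667.9 against 4711.1 and 5333.5, H2-Ab1 3947.4 and 4288.5 against 5607.8 and 5789.9, and H2-Eb1 5285.9 and 5044.3 against 6782.6 and 7354.8. For each of these 4 genes both HFD libraries were above both CTRL libraries, and the differences of 0.50 to 0.55 did not pass (edgeR adjusted p = 0.986). Without shared barcodes all 10 again lay above 0, with a median of 0.70, and none passed. The size depended on the processing. Over 18 settings, which included subsets of members and fits without 1 library, it ran from 0.23 to 0.69 for Cd74 and 0.27 to 0.71 for H2-Aa. For H2-Ab1 it ran from 0.28 to 0.70 and for H2-Eb1 from 0.26 to 1.1. A sum over cells cannot tell more MHC class II high cells from more of this RNA in each.

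The 9 genes of the rule also lay above 0, by a median of 0.40, as a description. Ctss measured 3151.7, 3252.1, 3747.9 and 4961.4 CPM in CTRL 1, CTRL 2, HFD 1 and HFD 2 and Aif1, a calcium-binding marker of macrophages, 609.9, 587.7, 665.3 and 821.6, without overlap. C1qa (3665.3, 4297.9, 3973.6 and 5805.8), C1qb (3189.3, 3718.0, 3637.9 and 5082.2), C1qc (2165.6, 2395.5, 2116.6 and 3388.9), Csf1r (290.2, 372.0, 295.7 and 545.2), Tyrobp (1785.2, 1754.6, 1570.4 and 2235.5), Cx3cr1 (446.6, 466.6, 453.1 and 665.9) and Mrc1 (49.9, 79.7, 67.7 and 186.0) overlapped between diets. HFD 2 was the highest library for all 9, and it was also the library with the fewest deep members. In members of at most 20000 UMIs the differences of C1qa, C1qb, C1qc, Csf1r, Cx3cr1 and Aif1 lay between 0.07 and 0.16, those of Ctss and Mrc1 were 0.28 and 0.75, and that of Tyrobp was -0.08. Without HFD 2 the differences of C1qc (-0.09), Csf1r (-0.14) and Tyrobp (-0.15) changed sign. Of 15 microglia genes outside the rule 14 lay above 0, with a median of 0.40, such as Tmem119 at 57.4, 75.8, 76.7 and 161.7 CPM. In members with few signs of a second cell 8 of 14 lay above 0, with a median of 0.03.

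The remaining lists varied in direction, and several lists of macrophage genes leaned to HFD as MHC class II did. Above 0 lay 17 of 20 pan-macrophage genes (median 0.28) and 18 of 23 lipid handling genes (0.19). Outside the rule, 13 of 14 scavenger and clearance receptors (0.36) and 21 of 24 lysosome genes (0.22) did so. So did 8 of 9 dendritic cell genes (0.32), but only 5 of 9 monocyte genes (0.03). Of 20 NF-kB feedback genes 17 lay below 0 (median -0.15) and of 28 immediate-early genes 20 (median -0.23). Nr4a3, a nuclear receptor induced by stimulation, measured 183.7 and 174.3 CPM in CTRL and 70.5 and 82.8 in HFD (-1.14, SE 0.20, edgeR adjusted p = 0.825). The 13 heat shock genes had a median of 0.01 and the 25 cytokine and chemokine genes 0.11. Of 23 interferon response genes 15 lay above 0 (median 0.33). Among them Irf7, the transcription factor that amplifies type I interferon, measured 32.8 and 23.4 CPM in CTRL and 75.6 and 56.2 in HFD (1.30, SE 0.25, edgeR adjusted p = 0.946). Gclc, the catalytic subunit of glutathione synthesis, measured 84.7 and 82.8 against 33.3 and 28.1 (-1.37, SE 0.19, edgeR adjusted p = 0.358), but its difference was 0.39 in members with few signs of a second cell.

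The genes nearest to the threshold were carried by few cells. Hist1h2ap, a replication histone, measured 120.9, 102.4, 9.03 and 11.4 CPM in CTRL 1, CTRL 2, HFD 1 and HFD 2 (log2 difference -3.38, SE 0.25, edgeR adjusted p = 0.0529). It passed when CTRL 1 (0.00869), CTRL 2 (0.00521) or HFD 2 (0.0271) was left out, under the same assumption about the lone library, and without shared barcodes it did not (-3.36, edgeR adjusted p = 0.829). A single member held 82.5% of its UMIs in CTRL 1 and 71.0% in CTRL 2. Pclaf, a replication factor, was found in 2, 2, 1 and 0 members, and Hist1h1b followed with 26.6, 33.6, 3.95 and 3.04 CPM. Reads of Hist1h2ap and Hist1h2ae may be shared with other copies of the histone cluster. At least 3 of the division genes Mki67, Top2a, Cdk1, Ccnb1, Ccnb2, Ccna2 and Birc5 were found in 4 members in all (1, 2, 1 and 0). Hbb-bs, a hemoglobin gene, measured 2409.5 CPM in HFD 1, where 97.7% of its UMIs were in 1 member.

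Ccl8, a monocyte attractant made by resident macrophages, measured 2.05 and 7.82 CPM in CTRL and 45.7 and 110.1 in HFD. It was found in 3, 3, 11 and 14 members, and the highest member held 53.1% and 45.5% of its UMIs in HFD 1 and HFD 2. The difference of 4.09 (SE 0.69) did not pass with all members (edgeR adjusted p = 0.729) but did in members with few signs of a second cell, where Ccl8 alone passed (3.34, edgeR adjusted p = 0.0287). Without shared barcodes it was 3.82 (edgeR adjusted p = 0.829). Mgl2 measured 19.1 and 14.8 CPM in CTRL and 49.1 and 52.4 in HFD (1.65, SE 0.25, edgeR adjusted p = 0.501), and Cd209a 7.51, 0.782, 31.6 and 44.0 CPM. These genes rested largely on the same cells: the 10 Cd209a-positive members held 116 Mgl2 UMIs and all other members 87. In CTRL 1 a single member held 82.1% of the Mgl2 UMIs. AW112010, an immune-induced RNA, measured 145.5 and 142.2 against 271.4 and 247.5 CPM, Ccl6, a chemokine, 60.1 and 68.8 against 112.3 and 120.0, Sla, an adaptor of receptor signalling, 17.1 and 24.2 against 45.1 and 56.9, and Maf 175.5 and 164.9 against 257.9 and 328.0. None passed (edgeR adjusted p between 0.938 and 0.986). In each the HFD libraries were both above the CTRL libraries, but AW112010, Ccl6 and Sla were named only because the diets did not overlap.

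**Figure D4:**
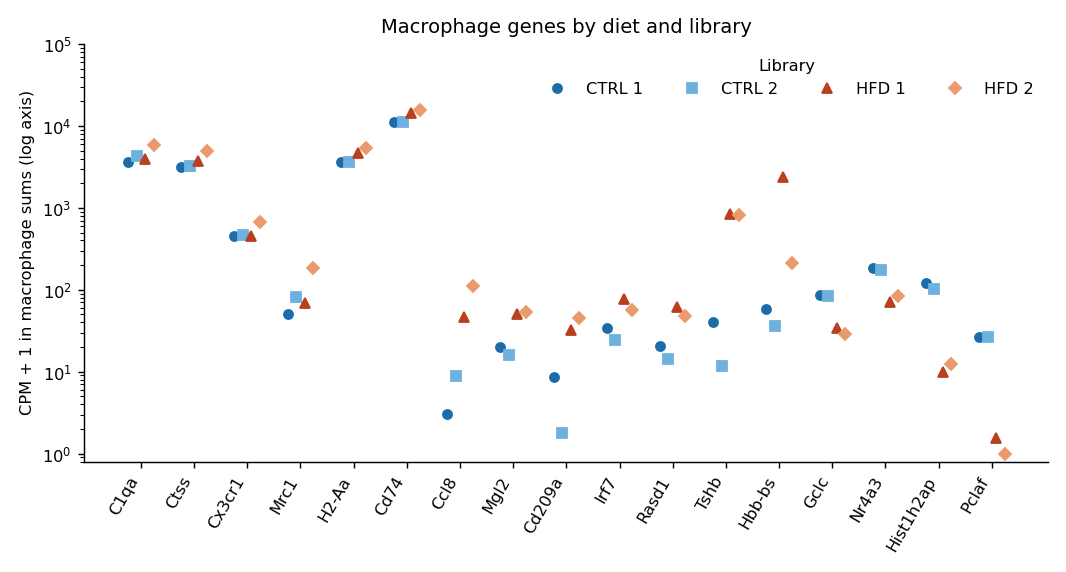
CPM plus 1 (vertical axis, logarithmic) of 17 genes in the macrophage sum of each library. H2-Aa and Cd74 lie higher in both HFD libraries by less than 1 on the log2 scale, whereas the wide gaps of Tshb, Hbb-bs, Hist1h2ap and Pclaf rest on few members.

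Whether the diet difference in macrophages differed from that in all other kept barcodes was tested with an interaction term, each library serving as a block. By edgeR 2 of 17716 genes passed (0.0113%), Tshb, the thyrotropin beta chain of hormone cells, and Rasd1, a small GTPase. No gene of the macrophage, microglia or MHC class II lists passed. In this test Tshb differed by 5.12 (SE 0.35, edgeR adjusted p = 4.08e-05) and Rasd1 by 2.11 (SE 0.26, edgeR adjusted p = 0.023). In macrophages Tshb measured 39.6, 10.9, 832.9 and 824.6 CPM in CTRL 1, CTRL 2, HFD 1 and HFD 2, and a single member held 53.7% of its UMIs in HFD 1 and 96.7% in HFD 2. Without shared barcodes the diet difference of Tshb within macrophages was -0.14, and the interaction test then called 139 genes, Tshb (1.97) but not Rasd1 (0.77) among them.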

How the data were processed

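Pituitary libraries of 2 diets were sequenced as 10x Genomics 3' libraries. The authors deposited raw UMI counts for each gene in each barcode, without normalization. Per the submitters' processing notes, the mouse build mm10, Cell Ranger 6.1.2 and Seurat 4.3 were used in steps that are not specified. Annotation and strand setting were not found in these sources, so overlapping, antisense and near-identical genes are uncertain. Pooling of glands into libraries is not stated.

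Members and gene lists were chosen with earlier results of these data known. Barcodes were filtered and classed as given in the report, with no doublet caller, but recounts without deep members and without other cell types' markers were made. Counts of members were summed per library (1464268, 1279468, 1772187 and 1316957 UMIs in CTRL 1, CTRL 2, HFD 1 and HFD 2). Genes passing the low-count filter of edgeR 4.0.16 (R 4.3.3, TMM scaling) were tested with its quasi-likelihood F-test. Benjamini-Hochberg adjustment ran over all genes tested, with a threshold of 0.05. Genes of the rule stayed in the counts of genes tested and called, except where they defined the subsets. DESeq2 1.42.0, other scaling, no filter, stricter member rules, thinning to 1500 UMIs and leaving out each library were alternatives. Recounts without barcodes shared between libraries, among others, were added after seeing the data. Shares were compared by exact two-sided permutation over libraries (scipy 1.17.1, Python 3.11.15). Samples were grouped by the labels' diet, and both the 2 libraries a diet and the depth limit precision. Named genes were the 9 markers and 4 MHC class II genes, up to 12 per direction at 20 CPM or more by size (in the diet comparison filled by smallest p), and in each list those that passed or had the highest CPM. In the diet comparison those up to 12 genes also had to show no overlap of the diets' libraries. The fill passed over genes whose CPM in other barcodes, scaled by the hormone share of members, reached 50% of that in members. The text names a part of these, and Tmem119 and a few others in the diet comparison were named after their values were seen. The scripts were tested on simulated counts with known changes and the same spread for every gene. The diet comparison recovered 13% of 2-fold and 74% of 4-fold changes, and the MHC class II comparison 57% and 87%. The lack of diet calls therefore does not show a lack of 2-fold changes.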

Additional observations from a re-analysis of the deposited data

Results flagged for a closer look

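In 2 genes the diet difference in macrophages differed from that in all other kept barcodes by a test of the difference itself. Tshb differed by 5.12 on the log2 scale (SE 0.35, edgeR adjusted p = 4.08e-05), with both HFD libraries higher in macrophages. In the other kept barcodes it measured 1512.5, 970.5, 1030.6 and 1872.7 CPM in CTRL 1, CTRL 2, HFD 1 and HFD 2. Of the macrophage UMIs of Tshb, a single member held 53.7% in HFD 1 and 96.7% in HFD 2. Without shared barcodes the Tshb difference between the classes was 1.97 (edgeR adjusted p = 0.000541). The diet difference of Tshb within macrophages then changed sign, so HFD was no longer higher there. Rasd1 differed by 2.11 (SE 0.26, edgeR adjusted p = 0.023), with 19.8, 13.3, 59.8 and 47.1 CPM in macrophages and 122.1, 118.3, 105.5 and 94.0 CPM in the other kept barcodes. It was found in 14, 11, 26 and 13 members. Without shared barcodes its difference was 0.77 (edgeR adjusted p = 0.855) and without HFD 2 it was 2.14 (0.0818).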

How the results depend on the processing

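Limits lie in the number of libraries, in barcodes shared between them and in few deep members. The difference in the share of macrophages was 0.763 percentage points without shared barcodes and -0.338 to 0.634 when 1 library was left out. Without thinning, the differences were -4.12 for Mrc1-positive, 0.29 for Cx3cr1-positive and 1.32 for Cd209a-positive members. For diet, 0 calls became 1 with hormone UMIs under 5%, 1 with barcodes limited to 1000 or more genes and 10% or less mitochondrial UMIs, 1 with at most 20000 UMIs, 1 with few signs of a second cell, 1 after thinning, 4 in MHC class II high members, 10 by DESeq2, 167 without a low-count filter and 0 to 17 without 1 library (17 without CTRL 1, 11 without HFD 2, 4 without CTRL 2). With the replicate block 6 genes passed (Ccl8, Tshb, Hbb-bt, Elobl, Hist1h2ap and Hist1h2ae), although the labels do not pair the numbers and the correlation of same-numbered deviations was 0.0632 over 9799 genes. For the interaction, 2 calls became 139 without shared barcodes, 5 with RLE scaling, 72 without a filter and 7 to 104 without 1 library. For Mrc1-only members, 5 calls became 67 without a filter, 9 by DESeq2 and 0 to 5 without 1 library. The 5 genes called after thinning (Lyz2, Cst3, Cd9, Ctsl and Ctss, a gene of the rule) included 0 of the 5. For all Mrc1-positive members, 0 became 32 after thinning, 17 with few signs of a second cell, 11 without shared barcodes, 10 by DESeq2 and 0 to 5 without 1 library. For MHC class II, 496 calls became 998 without a filter, 296 by DESeq2 and 244 to 358 without 1 library, of which HFD 2 gave the 244 and HFD 1 gave 301. The cause of these changes was not tested.

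The diet difference changed sign for Tshb (-0.66 with few signs of a second cell, -0.14 without shared barcodes), Gclc (0.39 with few signs of a second cell), C1qc (-0.004 with few signs, -0.09 to 0.73 without 1 library), Csf1r (-0.14 to 0.88 without 1 library), Cx3cr1 (-0.04 with few signs) and Tyrobp (-0.07 without other markers, -0.08 at most 20000 UMIs, -0.14 with few signs, -0.002 after thinning, -0.15 to 0.5 without 1 library).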
